A study of Homo sapiens with 12 samples.

Results

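These data describe what happened to the transcriptome of A549 cells when the histone demethylase KDM3A was lowered with a small interfering RNA (siRNA). A549 is a human lung adenocarcinoma line, grown here in RPMI1640 with fetal bovine serum. The comparison used 6 of the 12 arrays of the series, chosen by their titles: 2 arrays after transfection with siKDM3A, 2 with siEGFP and 2 with siFFluc, named for green fluorescent protein and firefly luciferase, which human cells do not encode. All cells, controls included, received an siRNA duplex at 100 nM with a lipid reagent for 24 h. The other 6 arrays hold the same 3 siRNAs in the bladder carcinoma line SW780. The labels do not say how many duplexes siKDM3A holds, and give its sequence nowhere. Untransfected cells are not analysed here, and a second, independent siRNA against KDM3A is not either, so the results describe this reagent in 1 cell line. Nothing in the labels says that the 2 arrays of a group came from separate cultures, so p-values reflect only how far these arrays vary, possibly for technical reasons.

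KDM3A removes methyl groups from mono- and dimethylated lysine 9 of histone H3, a mark of transcriptionally quiet chromatin, and is also known as JMJD1A. It is best known for its roles in spermatogenesis, in fat metabolism and in the response to low oxygen, and it can act as a coactivator of nuclear receptors. No histone mark was measured here. Values are MAS5 signals, the linear brightness units of Affymetrix arrays. Changes are log2 fold changes ± SE on the log2(signal + 16) scale, siKDM3A (n = 2) against both control siRNAs weighted equally (n = 2 each). A gene is said to rise or fall where limma's moderated test gave an adjusted p below 0.05 (Benjamini-Hochberg over all 14061 genes).

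Median signal on the siKDM3A arrays was 53.1 and 51.9, below the 57.4 to 59.1 of the 4 A549 control arrays. The 3' to 5' signal ratio of the beta-actin control probe sets, a measure of RNA integrity, was 1.19 and 1.16 with siKDM3A and 1.20 to 1.29 in the controls, and the same ratio for GAPDH was 0.893 and 0.896 against 0.914 to 0.932. These values move with the siRNA, and their part in the results was not tested. Epithelial markers were strong on all 6 arrays (KRT18 at 24380.4 to 27172 and EPCAM at 2463 to 3019). Leukocyte markers were dim (PTPRC at 4.5 to 19.5). Of the alveolar markers, SFTPB lay between 92.1 and 210.8 and NKX2-1 between 2.50 and 26.0, so NKX2-1 was near absent and SFTPB low. The SW780 bladder arrays gave SFTPB at 116.7 to 165.1, so its A549 signal did not stand above that of the other line. SFTPB fell (-0.78, adjusted p = 0.0128). It lost that call against siFFluc alone, with averaged probe sets and without either A549 siKDM3A replicate. The alveolar markers SFTPC (0.40, adjusted p = 0.477) and NAPSA (-0.51, adjusted p = 0.510) had no call. The summed signal of 5 epithelial markers was 44793 to 45769 with siKDM3A and 41431 to 44566 in the controls. That of 5 alveolar markers was 216 to 271 against 292 to 404, that of 3 leukocyte markers 83.0 to 139.5 against 99.3 to 136, and that of 4 fibroblast markers 845 to 970.0 against 1182 to 1233. Within the fibroblast list COL3A1 was at most 32.1 on every A549 array, and LUM and COL1A1 made up most of the sum. LUM lay at 374.1 to 605 in A549 and at 300.3 to 608.8 in SW780. The part of these sums in the results was not tested.

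The targeted transcript was lowered on both arrays. KDM3A, on chromosome 2, had signals of 1299.7 and 1307 with siEGFP, 1519 and 1437 with siFFluc and 692 and 712 with siKDM3A. Both siKDM3A arrays thus lay below every control array, and 50.5% of the control signal was left (-0.97 ± 0.10, adjusted p = 8.34e-05). The fall was -0.88 against siEGFP alone and -1.06 against siFFluc alone. Other H3K9 demethylases gave 0 calls among 10 by limma (1 higher and 0 lower at an unadjusted p under 0.05), with a list median of 0.06. Among H3K9 methyltransferases and the HP1 proteins that bind the mark, 1 of 12 rose (8.33%, against 5.33% of all genes), SUV39H2 (0.36 ± 0.09, adjusted p = 0.0195). That call ended under 7 of 24 alternatives, among them siEGFP alone and the omission of A549 siKDM3A replicate 1 or 2.

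Over all genes, 749 rose (5.33%) and 893 fell (6.35%), 11.7% of those tested. On the deposited scaling the falls were the larger changes: 98 genes fell and 11 rose by at least 2-fold, and 17 fell and 0 rose by at least 3-fold. Median size was 0.50 among the falls and 0.34 among the rises. Both siKDM3A arrays lay below all 4 control arrays for 2799 genes (19.9%) and above them for 2395 (17.0%), and 866 of the 893 falls and 684 of the 749 rises met this. Against siEGFP alone 1131 genes were called (8.04%; 3.75% higher, 4.30% lower), against siFFluc alone 1411 (10.0%; 4.44% higher, 5.60% lower), and between siEGFP and siFFluc 410 (2.92%; 1.49% higher, 1.43% lower). Of the falls 359 lacked a call against siEGFP alone and 238 against siFFluc alone. Of the rises 340 and 276 did. A stricter set, called against both controls together and against each alone with no overlap of arrays, held 402 falls (2.86%) and 215 rises (1.53%). These criteria reuse the same siKDM3A arrays and are not independent of each other. The balance of rises and falls depends on scaling: median scaling moved the median of all genes from -0.02 to 0.10 and gave 1890 rises and 480 falls, and quantile normalization gave 864 and 836. So does the balance of large changes. Rises and falls of at least 1.5-fold numbered 79 and 340 as deposited, 118 and 275 with quantile normalization and 211 and 236 with median scaling. Without A549 siKDM3A replicate 1 or replicate 2 the total of 1642 calls became 594 or 524, and without A549 siFFluc replicate 1 or 2 it became 1068 or 1066. The siEGFP comparison gave 626, 488, 474 and 413 calls without A549 siEGFP replicate 1 or 2 or A549 siKDM3A replicate 1 or 2, and 1729 and 1733 without SW780 siFFluc replicate 1 or 2. The siFFluc comparison gave 586, 618, 601 and 547 without A549 siFFluc replicate 1 or 2 or A549 siKDM3A replicate 1 or 2. The comparison of controls gave 253, 220, 176 and 213 without A549 siEGFP replicate 1 or 2 or A549 siFFluc replicate 1 or 2.

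**Figure D1:**
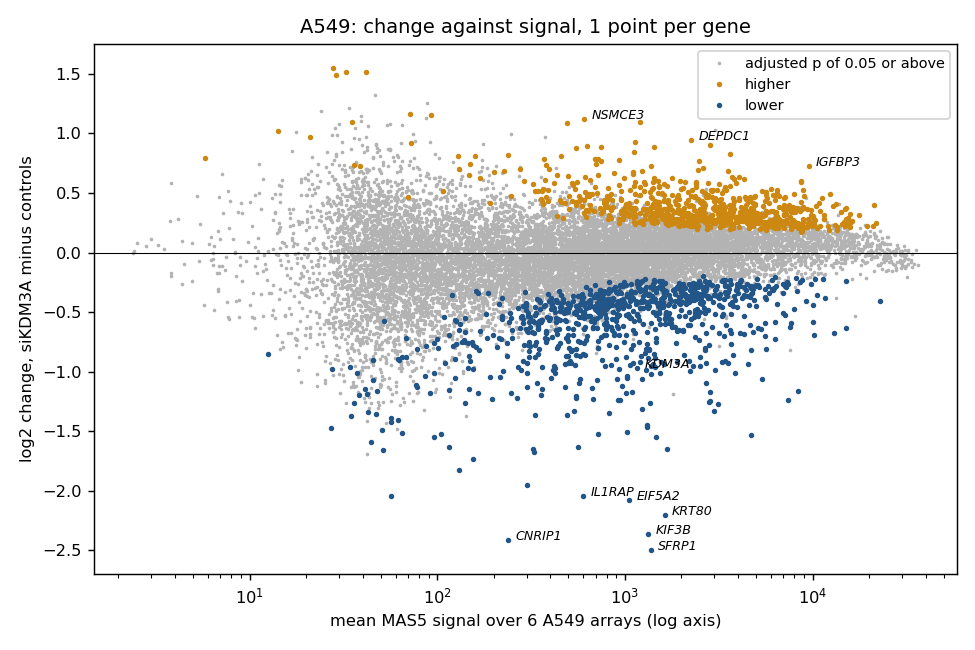
Each point is a gene, placed by its mean MAS5 signal over the 6 A549 arrays (log axis) and its log2 change under siKDM3A; orange points rose, blue points fell and grey points had an adjusted p of 0.05 or above. The lower edge reaches -2.50 at SFRP1, while no called gene above a signal of 100 rises by more than 1.12.

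On the deposited scaling, the direction of change was related to how strongly a gene was expressed. Median signals there were lower on the siKDM3A arrays (53.1 and 51.9). The bins were not counted under median scaling or quantile normalization, so the part of scaling in this pattern was not tested. In the brightest of 5 equal bins by A549 signal (2379.8 to 36545), 14.7% rose and 7.08% fell, with a median change of 0.07. In the middle bin (325 to 875) 2.95% rose and 9.21% fell, and the median was -0.06. The dimmest bin, up to a signal of 84.9, gave 13 rises and 32 falls among 2813 genes. Gene lists below are set against all genes and not against genes of like signal, which limits the comparison for lists of bright or dim genes. Genes that fell had a median signal of 1146 in the control arrays, and genes that rose 2439. The falls were also longer genes, with a median genomic length of 42.4 kb against 28.2 kb for all genes tested and 26.2 kb for the rises, and 43.7 kb in the stricter set of falls. Protein-coding genes made up 735 of the rises and 874 of the falls (5.72% and 6.81% of the 12842 tested). Shares higher and lower were 1.18% and 0.860% for long noncoding RNAs and 3.25% and 3.75% for ZNF genes. Over all genes they were 5.33% and 6.35%. Of 930 long noncoding RNAs 11 rose and 8 fell, and of 400 genes named ZNF with a number 13 rose and 15 fell, which became 0 and 4 without A549 siKDM3A replicate 1, 3 and 5 without A549 siKDM3A replicate 2, and 33 and 9 with arrays scaled to their medians.

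The 12 largest falls were chosen from the stricter set, at a mean signal of at least 200 in the siKDM3A or the control arrays, whichever was higher. SFRP1, a secreted protein that binds Wnt ligands and blocks them, had the largest. Its signals were 2092 and 1885 with siEGFP, 1858 and 1758 with siFFluc and 328 and 317 with siKDM3A, a change of -2.50 ± 0.16. The siKDM3A arrays were close to each other and far below all controls, and a second SFRP1 probe set moved by -2.31. CNRIP1, which binds the cannabinoid receptor CB1, went from 332 to 52.0 on average (-2.41 ± 0.31), and its siKDM3A arrays, at 71.0 and 33.0, were the least alike of the leading falls. KIF3B, a motor subunit of kinesin-2, which carries cargo along microtubules and into cilia, gave 2113 and 2082 with siEGFP, 1524 and 1588 with siFFluc and 349 and 329 with siKDM3A (-2.36 ± 0.08). Its siFFluc arrays lay below its siEGFP arrays, yet both stood far above the siKDM3A pair, and its second probe set moved by -1.71. KRT80, a type II keratin, gave 468 and 466 on the siKDM3A arrays against 2379 and 2313 (siEGFP) and 1961 and 2218 (siFFluc) (-2.21 ± 0.09). EIF5A2, a close relative of the translation factor eIF5A, gave 336 and 314 on the siKDM3A arrays against 1348 and 1348 (siEGFP) and 1523 and 1458 (siFFluc) (-2.07 ± 0.25).

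IL1RAP encodes the co-receptor that the interleukin-1 receptor needs to signal. Its signals were 674 and 704 with siEGFP, 1077 and 772 with siFFluc and 132.9 and 243 with siKDM3A (-2.04 ± 0.20). BTRC encodes the F-box protein that marks the NF-kB inhibitor IkB and beta-catenin for destruction, and it gave 424 and 438 with siEGFP, 421 and 433 with siFFluc and 125 and 122 with siKDM3A (-1.68 ± 0.21). The 4 control arrays of BTRC were nearly equal. UBA6, an enzyme that activates ubiquitin, gave 2013 and 1962 with siEGFP, 1870.1 and 1723 with siFFluc and 651 and 618 with siKDM3A (-1.55 ± 0.07). KATNAL1, of the katanin family that severs microtubules, went from 731 to 221 (-1.63 ± 0.18), and TMF1, a coiled-coil protein of the Golgi, from 2184 to 681 (-1.65 ± 0.08). The chloride channel gene BEST1 went from 207 to 51.0 and LOC646214 from 407 to 92.4. The highest adjusted p of the 12 was 0.00179, at BEST1, and 11 of them kept the call under each alternative tried. BEST1 lost it when the probe sets of a gene were averaged (adjusted p = 0.151).

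Other probe sets of the same genes did not always move alike. Second probe sets fell with an adjusted p below 0.05 for SFRP1, KIF3B and UBA6 (-0.72). For IL1RAP (0.05), BTRC (0.04), KATNAL1 (-0.13), TMF1 (-0.22) and EIF5A2 (-0.26) they did not pass, at mean signals of 193, 193, 130.4, 738 and 340.2. Nor did those of LOC646214 (-0.49, mean signal 307) and BEST1, whose second probe set was dim (0.53, mean signal 46.1). Across the 641 falls with a further probe set, its change had the same sign in 535, was itself called lower in 184 and higher in 0 (limma, all kept probe sets). For the 466 rises the same sign was seen in 363, a call higher in 97 and a call lower in 5. These probe sets read the same labelled RNA and are no further replicates.

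**Figure D2:**
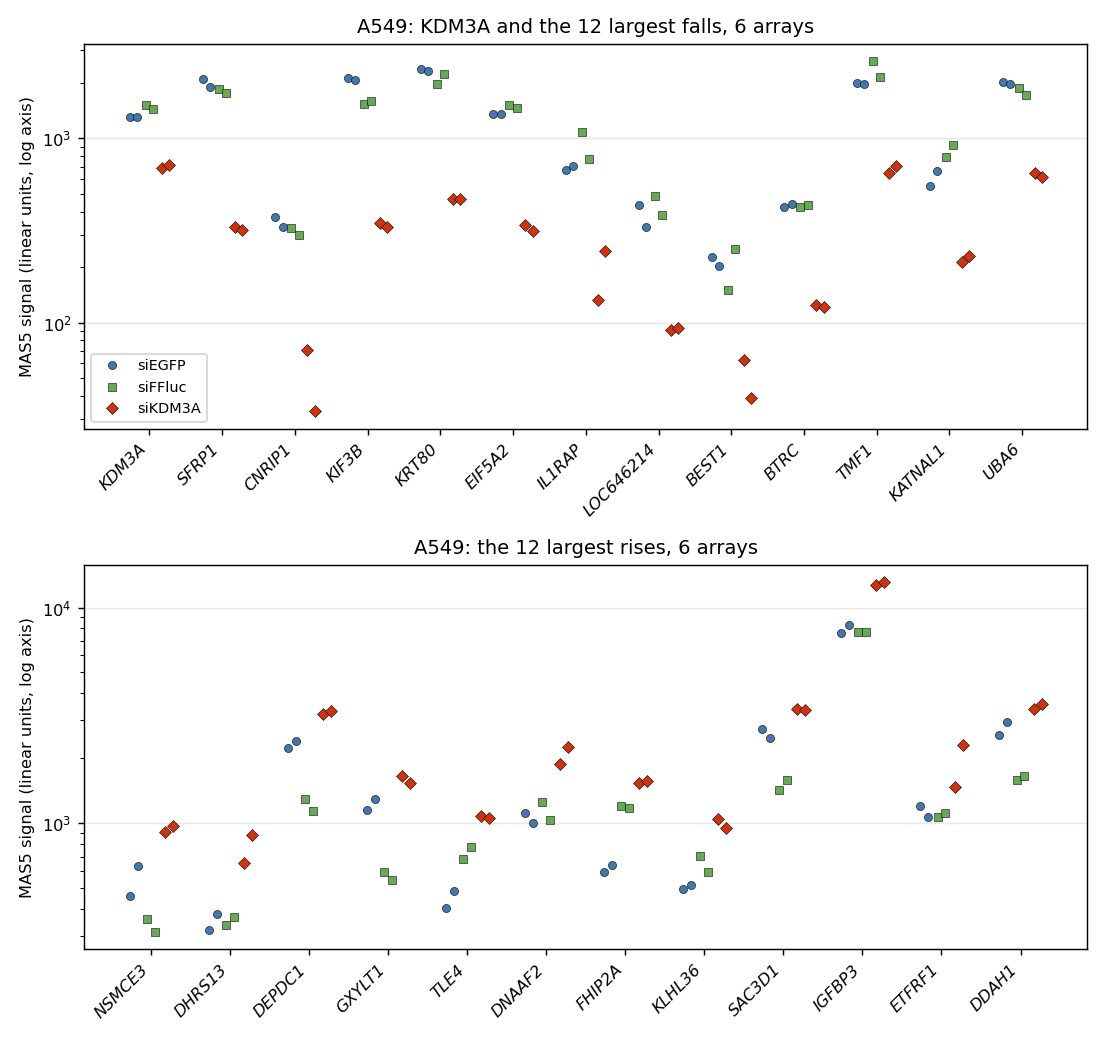
MAS5 signal (log axis) on each of the 6 A549 arrays for KDM3A and the 12 largest falls (top) and the 12 largest rises (bottom); circles are siEGFP, squares siFFluc and diamonds siKDM3A, with 1 point per array. In every gene shown both diamonds lie outside the range of the 4 control arrays, and in several rises, such as DEPDC1 and GXYLT1, the control siRNAs also stand apart from each other.

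Rises were smaller. The siEGFP and siFFluc arrays differed from each other by limma's test for 135 of the 749 rises and 45 of the 893 falls, against 410 of all 14061 genes (2.92%). NSMCE3, a subunit of the SMC5/6 complex that guards replicating DNA, gave 460.1 and 632 with siEGFP, 358 and 313 with siFFluc and 912 and 971 with siKDM3A (1.12 ± 0.13, adjusted p = 1.89e-04). DHRS13, a short-chain dehydrogenase, gave 319.8 and 380.3 with siEGFP, 336 and 366 with siFFluc and 655 and 883 with siKDM3A (1.09 ± 0.14, adjusted p = 3.91e-04), and its 4 control arrays lay close together. IGFBP3, a secreted carrier of insulin-like growth factors, had the highest signals of the 12, with 7653 and 8267 with siEGFP, 7672 and 7668 with siFFluc and 12748 and 13115 with siKDM3A (0.73 ± 0.07, adjusted p = 2.66e-05), and a second probe set moved by 0.77. DNAAF2, which helps to assemble axonemal dynein in the cytoplasm, gave 1120.3 and 1006 with siEGFP, 1259.6 and 1040.2 with siFFluc and 1877 and 2245 with siKDM3A (0.89 ± 0.11). For DHRS13, IGFBP3 and DNAAF2 the siEGFP and siFFluc arrays overlapped.

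For others of the 12 the size of the rise depended on the control. DEPDC1 gave 2237 and 2397 with siEGFP, 1298 and 1141 with siFFluc and 3193 and 3303 with siKDM3A, and its change was 0.49 against siEGFP alone and 1.40 against siFFluc alone. GXYLT1, a xylosyltransferase that acts on Notch-type repeats, gave 1152 and 1302 with siEGFP, 591 and 544 with siFFluc and 1663 and 1543 with siKDM3A, with changes of 0.38 against siEGFP alone and 1.47 against siFFluc alone. In both genes siFFluc was the lower control. FHIP2A, of a complex that links cargo to dynein, ran the other way, at 592 and 643 with siEGFP, 1205 and 1174 with siFFluc and 1540.5 and 1562 with siKDM3A, with changes of 1.31 against siEGFP alone and 0.38 against siFFluc alone. TLE4, a corepressor of the Groucho family, changed by 1.24 against siEGFP alone and 0.54 against siFFluc alone, SAC3D1 by 0.37 against siEGFP alone and 1.16 against siFFluc alone, and DDAH1, which breaks down asymmetric dimethylarginine, by 0.33 against siEGFP alone and 1.09 against siFFluc alone. KLHL36 (0.78 ± 0.15) and ETFRF1 (0.72 ± 0.14) were the remaining members. Of the 12 rises 9 kept the call under each alternative. KLHL36 lost it without A549 siKDM3A replicate 1 and ETFRF1 without replicate 2 of that group, and both, like TLE4, when probe sets were averaged. Their highest adjusted p was 0.0856 for KLHL36, 0.0723 for ETFRF1 and 0.159 for TLE4.

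**Figure D3:**
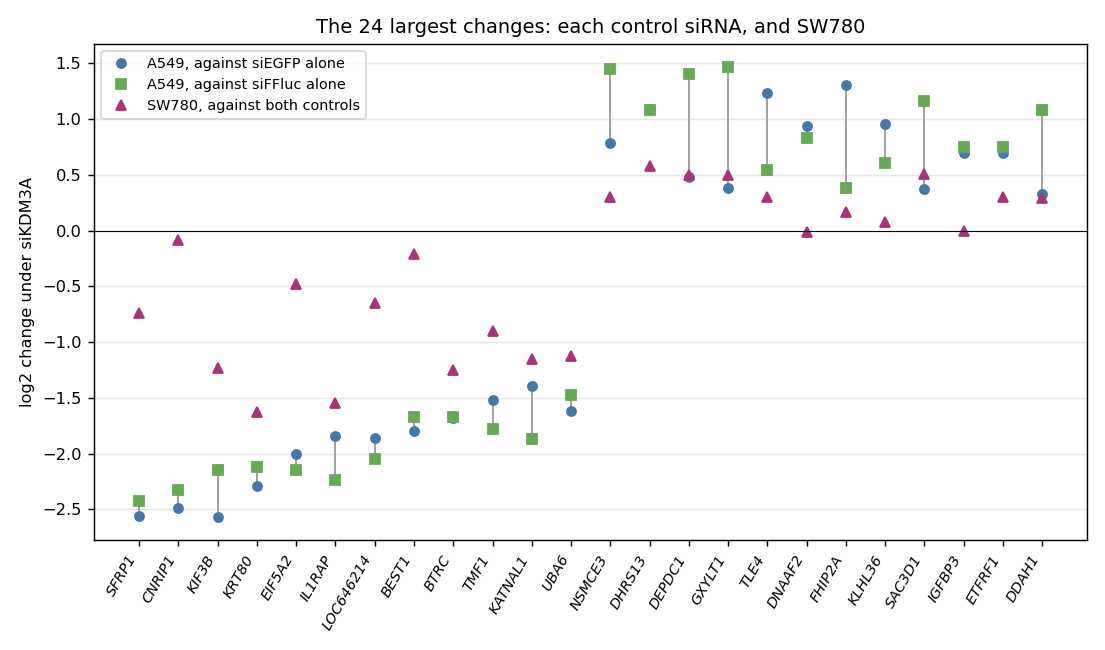
Log2 change under siKDM3A for the 12 largest falls (left) and 12 largest rises (right), against siEGFP alone (circles), against siFFluc alone (squares) and in SW780 against both controls (triangles). Circles and squares of a fall differ by at most 0.48, those of a rise by up to 1.09, and the triangles lie nearer to 0 than both in 21 of the 24 genes, the exceptions being DEPDC1, GXYLT1 and SAC3D1. CNRIP1 (mean signal at most 5.70) and EIF5A2 (at most 20.4) were below the filter level of 33.6 in both SW780 groups, where a fall is poorly measured. Their triangles, at -0.09 and -0.48, had no call (limma adjusted p = 0.905 and 0.251). All 24 genes were picked for the size of their A549 change, so the count cannot show which line responded more.

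Among the gene lists examined, chemokines and cytokines had the largest share of falls in A549, and 5 of 21 genes of the interleukin-1 and Toll-like receptor chain fell as well. Interleukin-1 binds IL1R1 and its co-receptor IL1RAP, the signal passes through MYD88, IRAK kinases and the TAB and TAK1 complex, and NF-kB then enters the nucleus and turns on chemokines, cytokines and its own inhibitors. In that chain 0 genes rose and 23.8% fell, against 6.35% of all genes (list median -0.35, against -0.02 over all genes). IL1RAP was one of them. IRAK2, a kinase of the chain, gave 2105 and 1948 with siEGFP, 2785 and 2889 with siFFluc and 1298 and 1330.2 with siKDM3A (-0.86 ± 0.09, adjusted p = 8.64e-05). TAB3, an adaptor of the TAK1 kinase, gave 1116 and 1131 with siEGFP, 1307 and 1249 with siFFluc and 809.9 and 817 with siKDM3A (-0.55 ± 0.08, adjusted p = 4.91e-04). Both siKDM3A arrays of these genes lay below the lowest control, and the siFFluc arrays lay highest. TAB3 had an adjusted p of 0.0531 when its probe sets were averaged. The count of falls stayed at 4 to 5 with any 1 A549 array left out.

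Of 17 tested chemokine and cytokine genes 10 fell and 0 rose, 58.8% against 6.35% of all genes, and the list median was -0.63. At an unadjusted p under 0.05, limma gave 14 lower and 1 higher. CXCL8, the interleukin-8 gene, whose product draws in neutrophils, gave 7637 and 6265 with siEGFP, 14893 and 12828 with siFFluc and 4310.2 and 4386 with siKDM3A (-1.17 ± 0.10, adjusted p = 1.84e-05). CXCL3, a chemokine of the same family, gave 2874 and 2707 with siEGFP, 3806 and 3844 with siFFluc and 1556 and 1478 with siKDM3A (-1.10 ± 0.13, adjusted p = 2.18e-04). For IL1B, the gene of interleukin-1 beta, signals were 464 and 492 with siEGFP, 730.4 and 688 with siFFluc and 313 and 341 with siKDM3A (-0.80 ± 0.09, adjusted p = 1.07e-04). In all 3 genes siFFluc arrays were the highest and siKDM3A arrays the lowest, with siEGFP between them and no overlap. The change was -0.67 against siEGFP alone and -1.66 against siFFluc alone for CXCL8, -0.87 against siEGFP alone and -1.33 against siFFluc alone for CXCL3, and -0.53 against siEGFP alone and -1.08 against siFFluc alone for IL1B. Over the list the median was -0.49 against siEGFP and -0.75 against siFFluc, and siEGFP minus siFFluc itself had a median of -0.45. With any 1 A549 array left out 4 to 7 members fell, the fewest without A549 siKDM3A replicate 2; without A549 siEGFP replicate 2, A549 siFFluc replicate 2 or A549 siKDM3A replicate 1 there were 5, and without A549 siEGFP replicate 1 there were 6. Under median scaling 6 fell and 1 rose.

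Among 22 NF-kB subunits, regulators and feedback genes 5 fell and 1 rose (22.7% and 4.55%, against 6.35% and 5.33% of all genes; median -0.16). PTGS2, which makes prostaglandins, gave 4126 and 3105 with siEGFP, 6289 and 5053 with siFFluc and 2356 and 2099 with siKDM3A (-1.01 ± 0.12, adjusted p = 1.53e-04), and its second probe set moved by -1.01. REL, the c-Rel subunit, was at 611 and 604 on the siKDM3A arrays against 746 and 880.2 (siEGFP) and 862 and 880.1 (siFFluc) (-0.46 ± 0.09, adjusted p = 0.00595). TNFAIP3, which encodes the feedback inhibitor A20, fell against both controls (-0.43 ± 0.08) but had -0.18 against siEGFP alone (adjusted p = 0.307). Without A549 siKDM3A replicate 1 or 2, 2 or 1 of these genes fell, and REL then lost its call.

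The promoters of CXCL8 and CXCL3 are shown because these genes fell together and carry a kB-type sequence, the kind bound by NF-kB, close to their starts. The windows are the 250 bases before the start site from RefSeq (GRCh38.p14), with matches to GGANNTTCC on both strands in capitals.
CXCL8, chr4:73740319-73740568, plus strand: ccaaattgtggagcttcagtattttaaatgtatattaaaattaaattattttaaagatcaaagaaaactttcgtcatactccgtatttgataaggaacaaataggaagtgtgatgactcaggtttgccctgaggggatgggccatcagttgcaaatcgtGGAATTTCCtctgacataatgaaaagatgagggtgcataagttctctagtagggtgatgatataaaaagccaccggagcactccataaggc
CXCL3, chr4:74038690-74038939, minus strand: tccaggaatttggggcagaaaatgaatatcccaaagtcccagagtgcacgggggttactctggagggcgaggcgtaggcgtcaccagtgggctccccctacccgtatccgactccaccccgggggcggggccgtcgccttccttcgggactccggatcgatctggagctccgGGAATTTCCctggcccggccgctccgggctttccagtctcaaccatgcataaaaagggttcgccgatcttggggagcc
The letters matched are identical in both. GGANNTTCC occurs in such windows of 6 of the 12 tested chemokine and cytokine genes with an entry, 6 of 19 NF-kB factors and feedback genes (31.6%), 0 of 32 mitosis genes and 3.90% of the 11321 tested genes with an entry. This pattern was added after the data had been seen, and the looser general kB consensus, which can overlap it, was at 75.0% in the chemokine list against 68.1% over tested genes. Over all genes that fell the share with GGANNTTCC was 4.62%, and over all that rose 3.51%. A match describes letters and shows no binding.

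Some matrix and integrin genes also fell. Of 33 matrix proteins and integrins 9 fell and 0 rose (27.3% against 6.35%), with a list median of -0.29; at an unadjusted p under 0.05, limma gave 16 lower and 0 higher. For 25 of the 33 both siKDM3A arrays lay below all 4 controls, against 19.9% of all genes, and for 0 above. ITGA6, the alpha-6 integrin that binds laminin, gave 3904 and 3642 with siEGFP, 4022 and 3958 with siFFluc and 2380.4 and 2387 with siKDM3A (-0.70 ± 0.07, adjusted p = 8.51e-05), though its second probe set did not pass (adjusted p = 0.988, mean signal 2406). COL4A5, a chain of basement membrane collagen, gave 1195 and 1111 with siEGFP, 1141 and 1138 with siFFluc and 673 and 674 with siKDM3A (-0.75 ± 0.08, adjusted p = 1.20e-04). ITGB8, an integrin that releases active TGF-beta, gave 841 and 823 with siEGFP, 876 and 896 with siFFluc and 475 and 337 with siKDM3A (-1.07 ± 0.13, adjusted p = 1.89e-04). The siKDM3A arrays of all 3 lay below the lowest control. COL4A5 and ITGB8 lost the call when a dim second probe set was averaged in (adjusted p = 0.648 and 0.453). Counts were 4 to 9 with 1 A549 array left out (4 without either A549 siKDM3A replicate, 5 without A549 siFFluc replicate 1 and 6 without A549 siEGFP replicate 2), and 4 under median scaling, where the median was -0.17.

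Proteases and their inhibitors gave 4 falls and 0 rises among 24 (16.7% lower, against 6.35% of all genes). PLAU, the urokinase that activates plasminogen, gave 6331 and 6412 with siEGFP, 6470.3 and 6748 with siFFluc and 3088 and 3099.7 with siKDM3A (-1.06 ± 0.09, adjusted p = 9.08e-06), and the second probe set moved by -0.79. TIMP3, a matrix-bound inhibitor of metalloproteinases, gave 467 and 344 with siEGFP, 494 and 387 with siFFluc and 158 and 148 with siKDM3A (-1.36 ± 0.14, adjusted p = 6.48e-05). ADAM19, a membrane protease, went from 596 to 303 (-0.93 ± 0.12). In each of these genes the siKDM3A arrays lay close together and below all controls.

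In the TGF-beta and BMP pathway ligands bind type I and type II receptors, which phosphorylate SMAD proteins. Here 6 of 36 genes fell and 2 rose (16.7% and 5.56%, against 6.35% and 5.33% of all genes; list median 0.00). Median scaling turned the balance, with 8 rises and 5 falls, and 0 rose without A549 siFFluc replicate 2 or either A549 siKDM3A replicate. The type II receptor gene TGFBR2 gave 3966 and 4041 with siEGFP, 3334 and 3157 with siFFluc and 1787 and 1831 with siKDM3A (-0.99 ± 0.07, adjusted p = 3.58e-06). SMAD2, which carries the TGF-beta signal, gave 3467 and 3881 with siEGFP, 4581 and 3705 with siFFluc and 1978 and 2121 with siKDM3A (-0.92 ± 0.08, adjusted p = 2.70e-05), and SMAD5, which carries the BMP signal, 1143 and 1196 with siEGFP, 1346 and 1328 with siFFluc and 811 and 858 with siKDM3A (-0.57 ± 0.07, adjusted p = 1.77e-04). Second probe sets moved by -0.04 for TGFBR2 (mean signal 82.3), -0.07 for SMAD2 (mean signal 2254) and -0.46 for SMAD5, so those of the first pair did not repeat the fall. TGFBR2 and SMAD2 kept their call under all 24 alternatives, averaged probe sets included. Falls in the list numbered 4 without A549 siKDM3A replicate 1 and 3 without A549 siKDM3A replicate 2.

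**Figure D4:**
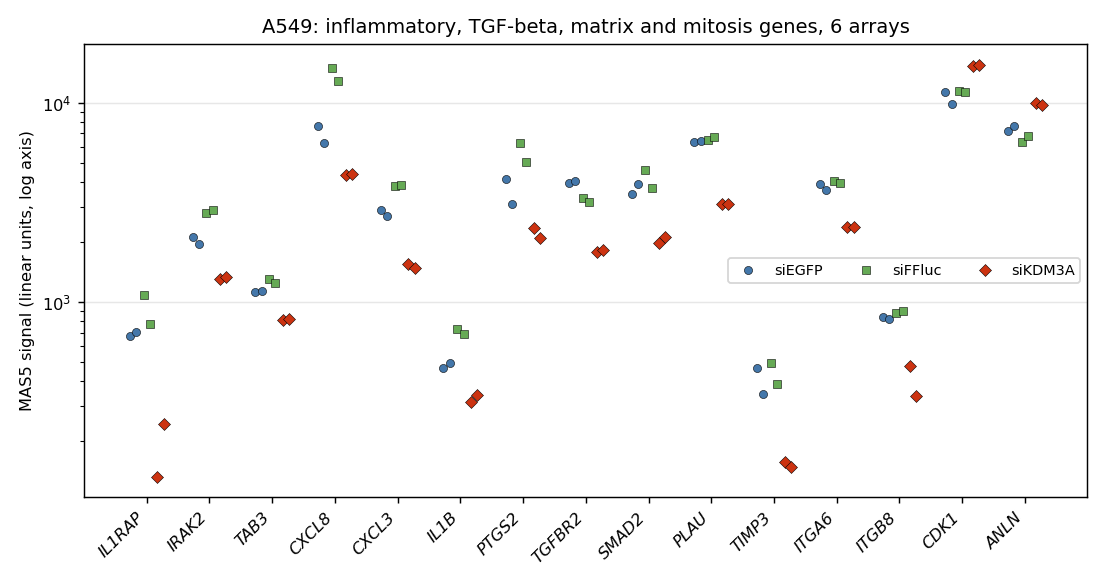
MAS5 signal (log axis) on each of the 6 A549 arrays for named genes of the interleukin-1, chemokine, TGF-beta, protease, matrix and mitosis lists; circles are siEGFP, squares siFFluc and diamonds siKDM3A. From IL1RAP to ITGB8 both diamonds lie below all controls, and for CDK1 and ANLN above them; for CXCL8 and CXCL3 the siFFluc squares lie above the siEGFP circles.

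Growth factor signalling moved in single genes. EREG, the EGF receptor ligand epiregulin, gave 8874 and 7905 with siEGFP, 10315 and 9627 with siFFluc and 4001 and 3728 with siKDM3A (-1.24 ± 0.07, adjusted p = 2.76e-07). The receptor tyrosine kinase gene AXL rose, with 5044 and 5166 with siEGFP, 4936 and 4713 with siFFluc and 7143 and 6945 with siKDM3A (0.50 ± 0.07, adjusted p = 4.06e-04), while EPHA2 went from 1494 to 934 (-0.67 ± 0.10). Of the 26 receptors and ligands 3 rose and 3 fell (11.5% each, against 5.33% and 6.35% of all genes). Immediate-early genes and feedback regulators of ERK signalling had 7 falls and 2 rises among 23 (30.4% and 8.70%, against 6.35% and 5.33% of all genes; median -0.30), with PHLDA1 (-0.40 ± 0.06) and IER3 (-0.38 ± 0.06) among the falls and EGR1 (0.44 ± 0.08) among the rises. Falls in the list numbered 2 without A549 siKDM3A replicate 1, 3 without replicate 2 of that group, and 2, with 3 rises, under median scaling. IER3 had no call against siEGFP alone (adjusted p = 0.116), and EGR1 none with averaged probe sets (0.685) and none without A549 siKDM3A replicate 2. The call of AXL also ended with averaged probe sets (0.138). Of the Wnt pathway, the antagonists had 2 falls among 9 (22.2%, against 6.35% of all genes), SFRP1 and ZNRF3 (-0.40 ± 0.10). The ligands, receptors and effectors had 2 falls and 2 rises among 28 (7.14% each, near the shares of 6.35% and 5.33% over all genes). DVL2, which relays the signal from the receptor, gave 689 and 712 with siEGFP, 671 and 721 with siFFluc and 323 and 311 with siKDM3A (-1.10 ± 0.10, adjusted p = 2.66e-05), and its relative DVL3 went from 559 to 408 (-0.44 ± 0.10). ZNRF3 and DVL3 each lost the call under 5 of 24 alternatives, among them siEGFP alone and A549 siKDM3A replicate 1 left out.

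Mitosis genes went the other way. Of 38 tested, 14 rose and 0 fell (36.8% against 5.33%), with a median of 0.20 (limma at an unadjusted p under 0.05: 20 higher, 0 lower), and for 23 both siKDM3A arrays lay above all 4 controls, against 17.0% of all genes. CDK1, whose kinase starts mitosis, gave 11275 and 9802 with siEGFP, 11487 and 11236 with siFFluc and 15212 and 15508 with siKDM3A (0.49 ± 0.07, adjusted p = 7.43e-04). ANLN, a scaffold of the cleavage furrow, gave 7216 and 7600.4 with siEGFP, 6349.7 and 6758 with siFFluc and 9906 and 9718 with siKDM3A (0.49 ± 0.06, adjusted p = 3.77e-04). AURKB, a kinase that corrects chromosome attachment, gave 3115 and 3058 with siEGFP, 2729 and 2899 with siFFluc and 3792 and 3788 with siKDM3A (0.36 ± 0.06, adjusted p = 0.00240). These rises are modest next to the falls above, and for these 3 genes the siKDM3A arrays lay above every control. AURKB had an adjusted p of 0.741 when its probe sets were averaged. In bulk RNA a larger share of cells in mitosis and more transcript per cell cannot be told apart. The list's rises numbered 3 without either A549 siKDM3A replicate, 7 and 8 without A549 siFFluc replicate 1 or 2, 9 without A549 siEGFP replicate 2, and 20 under median scaling.

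The promoters of CDK1 and ANLN are shown because many mitosis genes share a CCAAT box, bound by NF-Y, and the cell cycle homology region, whose core is TTTGAA. Matches to both motifs on either strand are in capitals (RefSeq, GRCh38.p14, 250 bases before the start).
CDK1, chr10:60778081-60778330, plus strand: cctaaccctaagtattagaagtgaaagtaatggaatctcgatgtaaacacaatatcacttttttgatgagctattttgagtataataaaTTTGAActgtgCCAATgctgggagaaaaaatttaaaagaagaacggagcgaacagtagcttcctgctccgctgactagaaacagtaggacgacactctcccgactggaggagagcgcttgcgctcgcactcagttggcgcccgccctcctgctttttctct
ANLN, chr7:36389612-36389861, plus strand: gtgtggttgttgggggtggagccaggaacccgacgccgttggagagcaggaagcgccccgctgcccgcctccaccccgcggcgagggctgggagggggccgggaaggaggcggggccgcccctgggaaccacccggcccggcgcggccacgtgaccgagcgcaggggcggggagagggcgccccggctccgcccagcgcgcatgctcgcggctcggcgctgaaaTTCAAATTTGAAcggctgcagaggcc
The ANLN window holds TTTGAA on both strands but no CCAAT box. The CCAAT letters were found in 24 of 32 mitosis promoters (75.0%) against 34.7% of tested genes, and TTTGAA in 16 of 32 against 8.77%. Over all 626 risen genes with an entry the shares were 37.1% and 11.0%, and over 736 fallen genes 34.1% and 8.83%.

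Of 26 cohesin, condensin and SMC5/6 genes 6 rose and 3 fell (23.1% and 11.5%, against 5.33% and 6.35% of all genes). The falls numbered 0 without A549 siEGFP replicate 2, A549 siFFluc replicate 2 or either A549 siKDM3A replicate, 1 without A549 siFFluc replicate 1, 2 without A549 siEGFP replicate 1 and 0 under median scaling. The rises numbered 3 to 5 with any 1 A549 array left out. Besides NSMCE3, its partner NSMCE4A gave 3179 and 3218 with siEGFP, 2780.2 and 2854 with siFFluc and 4458 and 4211 with siKDM3A (0.53 ± 0.06, adjusted p = 1.89e-04), and the condensin subunit NCAPG went from 2259 to 3033 (0.42 ± 0.06). The call of NSMCE4A ended when its probe sets were averaged (adjusted p = 0.333). Of 27 genes of double-strand break repair 3 rose and 2 fell (11.1% and 7.41%, against 5.33% and 6.35% of all genes), and 7 rose and 1 fell under median scaling. BARD1, the partner of BRCA1, went from 929 to 1346 (0.53 ± 0.08), and PRKDC, the kinase of end joining, from 2164 to 1600.0 (-0.43 ± 0.07).

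Metabolic groups held strong single changes with little common direction. Of 24 glycolysis genes 3 fell and 1 rose (12.5% and 4.17%, against 6.35% and 5.33% of all genes). TIGAR, which lowers a sugar phosphate that drives glycolysis, gave 3368 and 3773 with siEGFP, 3331 and 3498 with siFFluc and 1489 and 1422 with siKDM3A (-1.25 ± 0.06, adjusted p = 1.51e-07). PFKFB4 went from 390.4 to 221 (-0.78 ± 0.16) and PFKFB3 from 4464 to 5848 (0.39 ± 0.08), both enzymes that set the level of the same sugar phosphate. The list of aldo-keto, carbonyl and related reductases, abundant in A549, had 3 rises and 0 falls among 18 (16.7% higher, against 5.33% of all genes). Its median was -0.03. The rises were DHRS13, CBR1 (0.40 ± 0.09) and NQO1 (0.25 ± 0.07), of which none is an aldo-keto reductase. A second NQO1 probe set moved by -0.05, and NQO1 lost the call under 9 of 24 alternatives, including siEGFP alone and either A549 siKDM3A replicate left out. CBR1, PFKFB3 and PFKFB4 also lost theirs without either A549 siKDM3A replicate. Glutathione and thioredoxin genes had 4 falls and 0 rises among 28 (14.3% lower, against 6.35% of all genes). Of the falls SRXN1, which restores peroxiredoxins, went from 8630.1 to 5591 (-0.62 ± 0.06, adjusted p = 5.66e-05). TXNRD1, thioredoxin reductase, went from 25010.2 to 18906 (-0.40 ± 0.07), with no call without A549 siKDM3A replicate 1. Under median scaling 8 genes of this list rose and 2 fell.

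Solute carriers, the largest transporter group, had 18 falls and 12 rises among 227 (7.93% and 5.29%), near the shares over all genes. Median scaling turned the balance to 24 rises and 13 falls, and the falls and rises numbered 10 and 6 without A549 siKDM3A replicate 1 and 9 and 4 without A549 siKDM3A replicate 2. SLC30A7, which moves zinc into the Golgi, gave 1266 and 1309 with siEGFP, 1027 and 1059 with siFFluc and 521 and 447 with siKDM3A (-1.24 ± 0.08, adjusted p = 1.48e-06). SLC31A1, the main copper importer, gave 1698 and 2018 with siEGFP, 1908 and 1758 with siFFluc and 893 and 1043 with siKDM3A (-0.92 ± 0.10, adjusted p = 6.65e-05), and SLC15A4, a lysosomal transporter of histidine and small peptides, 1700.3 and 1752 with siEGFP, 1711 and 1656 with siFFluc and 906 and 926 with siKDM3A (-0.88 ± 0.08, adjusted p = 1.50e-05). All 3 kept their call under each alternative tried. Lysosome and autophagy genes had 5 falls and 3 rises among 41 (12.2% and 7.32%, against 6.35% and 5.33% of all genes), with the protease TPP1 (-0.60 ± 0.08) and prosaposin, PSAP (-0.47 ± 0.06), lower and the autophagy gene WIPI2 higher (0.51 ± 0.07, but adjusted p = 0.294 with averaged probe sets). Median scaling turned this list to 8 rises and 3 falls, and 2 fell and 1 rose without either A549 siKDM3A replicate. Sialyl-, fucosyl- and galactosyltransferases had 5 falls and 0 rises among 33 (15.2% lower, against 6.35%), such as ST3GAL5, which makes the precursor of the larger gangliosides (-0.40 ± 0.06). That count was 2 on omitting replicate 1 of A549 siEGFP or replicate 2 of A549 siFFluc, 3 on omitting replicate 2 of A549 siEGFP or replicate 1 of A549 siKDM3A, and 1 on omitting A549 siKDM3A replicate 2. Complement, coagulation and acute-phase genes had 3 falls and 2 rises among 26 (11.5% and 7.69%, against 6.35% and 5.33% of all genes). Complement C3 was at 931 and 910.0 on the siKDM3A arrays against 1401 and 1346 (siEGFP) and 1399 and 1477 (siFFluc) (-0.60 ± 0.10).

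Genes of protein synthesis and RNA processing were called in both directions. Translation factors had 5 rises and 2 falls among 43 (11.6% and 4.65%, against 5.33% and 6.35% of all genes), and 1 of each without either A549 siKDM3A replicate. Apart from EIF5A2, the cap-binding protein gene EIF4E2 rose, with 3087 and 3792 with siEGFP, 3109 and 3652 with siFFluc and 5267 and 5300.4 with siKDM3A (0.64 ± 0.08, adjusted p = 3.91e-04), a call that ended when its probe sets were averaged (adjusted p = 0.1004). Ribosome biogenesis genes had 6 falls and 2 rises among 38 (15.8% and 5.26%), with 3 falls without A549 siKDM3A replicate 1. Of these RRP1B, a nucleolar protein, gave 6023 and 5740.2 with siEGFP, 4889 and 4826 with siFFluc and 2790.1 and 2790.2 with siKDM3A (-0.93 ± 0.09, adjusted p = 3.24e-05), and the RNA polymerase I factors POLR1D (-0.51 ± 0.05, lost with averaged probe sets) and RRN3 (-0.40 ± 0.06) also fell. Aminoacyl-tRNA synthetases gave 1 fall among 17, EPRS1 (-0.29 ± 0.06), and spliceosome genes 4 falls and 3 rises among 44, with 0 of either without A549 siKDM3A replicate 1 or 2. The synthetase fall was 5.88% of its list, and spliceosome genes had 9.09% lower and 6.82% higher, against 6.35% and 5.33% of all genes. EPRS1 lost its call under 6 of 24 alternatives, among them siFFluc alone (limma adjusted p = 0.0707) and median scaling. Under median scaling 14 translation factors rose and 1 fell, 9 ribosome biogenesis genes rose and 4 fell, and 12 spliceosome genes rose and 1 fell. In further lists limma called these members: keratins 1 fall among 14 (KRT80, 7.14%) and transport kinesins and dynein 2 rises and 2 falls among 31 (6.45% each). Replication-dependent histones had 2 falls among 30 (6.67%), and long intergenic noncoding RNAs 1 rise and 4 falls among 204 (0.490% and 1.96%).

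Genes linked to KDM3A in other tissues moved in different directions in A549. Of 7 tested, 2 rose and 2 fell (28.6% each, against 5.33% and 6.35% of all genes). ADM, the adrenomedullin gene, which low oxygen induces, gave 7610.1 and 8752 with siEGFP, 7369.9 and 8047 with siFFluc and 10987 and 11090.3 with siKDM3A (0.48 ± 0.07, adjusted p = 6.80e-04). GDF15, a stress cytokine, went from 2049 to 1267 (-0.63 ± 0.08), with -0.21 against siEGFP alone (adjusted p = 0.232). PPARA, a nuclear receptor of fat oxidation, was dim, from 65.2 to 148 (1.15 ± 0.23), and its call ended against siFFluc alone (adjusted p = 0.279), and also when A549 siKDM3A replicate 1 was left out. Of 29 nuclear receptors 1 rose and 2 fell (3.45% and 6.90%, against 5.33% and 6.35% of all genes). The retinoic acid receptor gene RARG went from 184 to 73.3 (-1.15 ± 0.20), a call lost when A549 siKDM3A replicate 2 was left out. The RNA interference machinery, which all siRNAs use, had 1 rise and 2 falls among 15 (6.67% and 13.3%, against 5.33% and 6.35% of all genes), with DICER1 at -0.39 and AGO2 at -0.38. DICER1 had no call against siFFluc alone (adjusted p = 0.0504) and AGO2 none against siEGFP alone (adjusted p = 0.0722). AGO2 lost its call under 7 of 24 alternatives, median scaling among them.

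**Figure D5:**
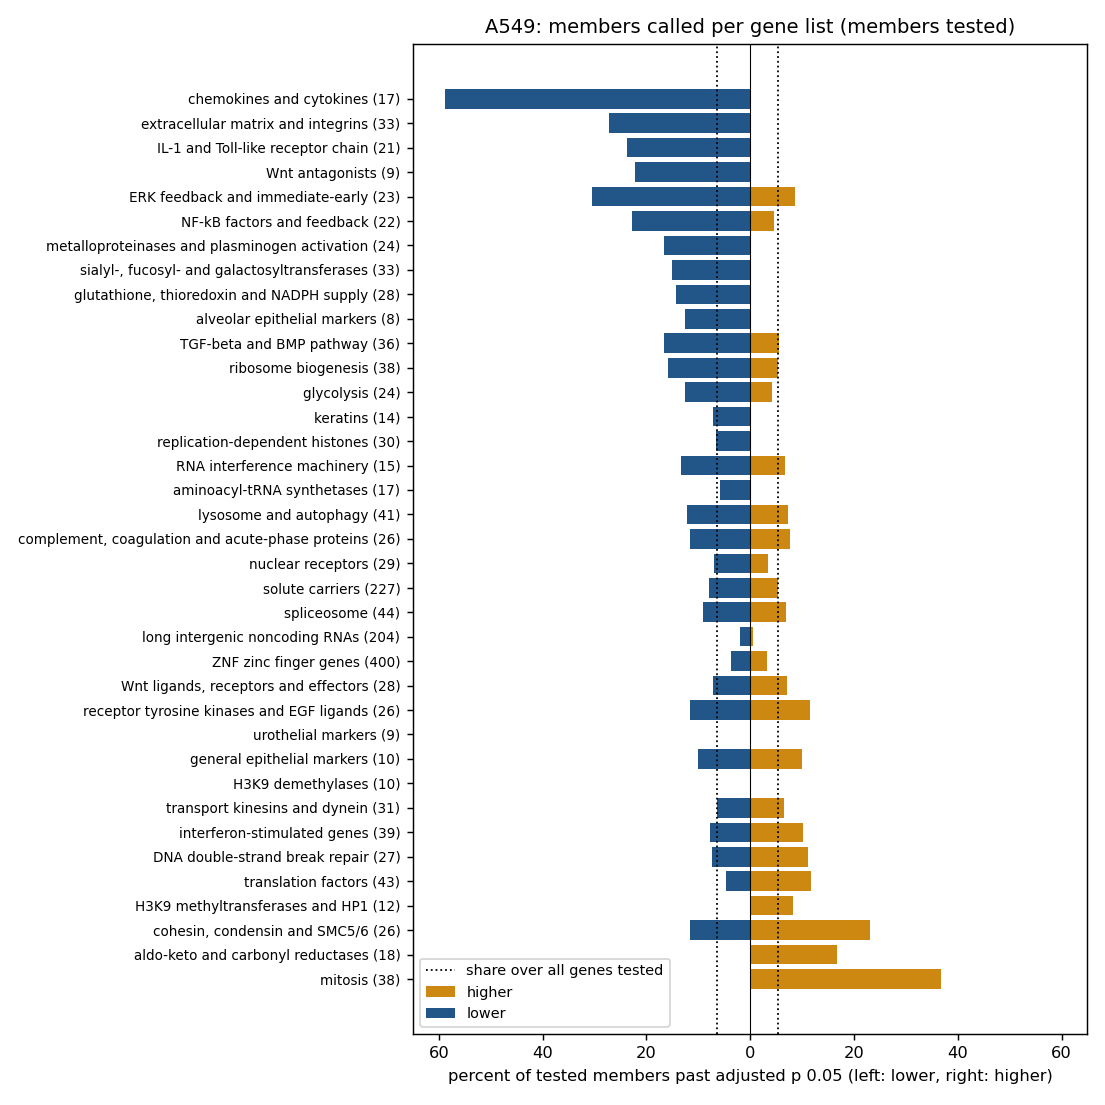
Percent of tested members called lower (blue, left) and higher (orange, right) in each gene list with at least 8 members tested, whose number is in brackets; dotted lines mark the shares over all genes, 6.35% lower and 5.33% higher. Chemokines and cytokines reach 58.8% lower and mitosis genes 36.8% higher, while many lists stay near the dotted lines.

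The same siRNA in SW780, with its own controls, gave a test of where the lines differed. Of the 893 A549 falls 320 also fell in SW780 (35.8% of the A549 falls and 37.0% of the 865 SW780 falls, which were 6.15% of all genes), and 20 rose there. Of the 749 rises 220 also rose (29.4%, and 27.6% of the 798 SW780 rises, 5.68% of all genes), and 14 fell. In the stricter A549 set 209 of 402 falls and 77 of 215 rises were shared with SW780. The test of the difference between lines called 387 genes (2.75%; 1.78% with the higher value in SW780 and 0.974% in A549), which included 137 of the A549 falls and 72 of the rises. SFRP1 was dim in SW780, at a mean of 46.6 with siKDM3A and 90.8 in the controls, where the added 16 makes a fold change smaller. It fell by 0.74 there (adjusted p = 0.00908), and the difference of 1.76 ± 0.22 passed (adjusted p = 0.00308). For CXCL8 the SW780 change was -0.43 (difference 0.74 ± 0.14, adjusted p = 0.0248), for PTGS2 0.01 (difference 1.02 ± 0.17, adjusted p = 0.00980) and for IRAK2 0.20 (difference 1.06 ± 0.13, adjusted p = 0.00308). Other A549 changes were matched in SW780 without a detected difference: PLAU (-0.96 there, difference 0.10 ± 0.12), TIMP3 (-1.57, difference -0.21 ± 0.20), TGFBR2 (-0.86, difference 0.13 ± 0.10) and RRP1B (-0.87, difference 0.06 ± 0.12). AXL rose in A549 and was at -0.25 in SW780 (difference -0.76 ± 0.09, adjusted p = 0.00308). In SW780, 18 of 38 mitosis genes rose and 1 fell, and 15 of 33 matrix and integrin genes fell and 0 rose. There, 6 of 17 chemokine and cytokine genes fell and 2 rose, and 2 of 21 interleukin-1 chain genes fell and 0 rose. SW780 shares over all genes were 5.68% higher and 6.15% lower. Of the interferon-stimulated genes 4 of 39 rose and 3 fell in A549 (10.3% and 7.69%, against 5.33% and 6.35% of all genes), while 24 rose and 0 fell in SW780, and 13 of the 39 differed by the test between lines. The A549 counts were 1 and 0 without A549 siKDM3A replicate 1, 2 and 2 without A549 siKDM3A replicate 2, 2 and 1 on omitting A549 siFFluc replicate 2, 3 and 1 on omitting replicate 1 of siFFluc or replicate 2 of siEGFP, and 8 and 1 with median scaling. IFIT1 gave 6934 and 7068 with siEGFP, 8559 and 8480.0 with siFFluc and 10949 and 11235 with siKDM3A in A549 (0.52 ± 0.07). The count of 387 differences ranged from 41 to 269 with any 1 A549 array left out, and was 64 and 41 without A549 siKDM3A replicate 1 or 2, 108 and 124 without A549 siFFluc replicate 1 or 2, and 158 without A549 siEGFP replicate 1. Leaving out SW780 arrays gave 147 and 194 (siEGFP replicate 1 or 2), 761 and 951 (siFFluc replicate 1 or 2) and 149 and 77 (siKDM3A replicate 1 or 2).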

How the data were processed

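The authors' deposited table held MAS5 signal intensities on a linear scale for 54675 probe sets on 12 arrays; per the submitters' processing notes the tool was MAS5, with no version stated. The trimmed mean (2% off each end) was 500.1 on all arrays. After removing 62 control probe sets, 41091 of 54613 had 1 gene symbol, 1801 several and 11721 none (annotation of 2016), and 41037 were updated through gene numbers (GRCh38.p14). Probe sets under the 40th percentile of mean signal (33.6) were dropped, and the brightest per gene was kept, giving 14061 genes. The intensities became log2(signal + 16) and were fitted with limma 3.58.1 (R 4.3.3, trended prior) as 6 group means over all 12 arrays. On simulated arrays with 200 changed genes the procedure recovered 45% of 1.5-fold and 70.5% of 2-fold changes. False calls were 4.26% and 2.76% of those made. The simulation gave siEGFP and siFFluc the same mean, so it does not cover differences between controls. Named genes were KDM3A, the 12 largest falls and rises of the stricter set with a mean signal of at least 200 in the higher group, cell type markers, and up to 3 genes of smallest adjusted p per list. Members and lists were chosen with earlier results of these data known. Alternatives covered pseudocount, filter, scaling, probe sets, controls, fit and single arrays. Figures used matplotlib 3.10.9.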

Additional observations from a re-analysis of the deposited data

Results flagged for a closer look

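Of the 114 named genes 35 passed limma's test of a difference in log2 change between the 2 lines (adjusted p from 5.61e-06 to 0.0496). Values are the SW780 minus A549 log2 change. Genes that fell in A549 and had a smaller negative value in SW780 differed by 1.13 for KIF3B, 0.58 for KRT80, 1.30 for LOC646214, 0.75 for TMF1, 0.43 for UBA6, 0.74 for CXCL8, 0.81 for DVL2, 0.56 for SMAD2, 0.74 for EREG, 0.36 for IER3, 0.48 for ITGA6 and 0.44 for SLC15A4. CNRIP1 (difference 2.33) and EIF5A2 (1.59) had mean SW780 signals of at most 5.70 and 20.4, below the filter level of 33.6. A fall is poorly measured there, and these values cannot show whether the response differed. SFRP1 (1.76) and CXCL3 (0.87) were dim in SW780, at most 90.8 and 45.4, where the pseudocount of 16 makes a change smaller, and this bears on the size of their difference. Genes that fell in A549 and had a value above 0 in SW780 differed by 0.77 for GDF15, 1.06 for IRAK2, 1.02 for PTGS2, 1.07 for PFKFB4, 0.61 for PHLDA1, 0.43 for RRN3, 0.76 for DHX16, 1.07 for SFTPB, 2.29 for ZNF836 and 0.98 for ZNF503. Among genes that rose in A549, the difference was -0.81 for NSMCE3 and -0.68 for FHIP2A where SW780 had the same sign, and -0.90 for DNAAF2, -0.73 for IGFBP3, -0.56 for CBR1, -0.76 for AXL, -0.44 for DYNC1LI1 and -0.43 for ESRP1 where it had the other. IFIT1 was the exception, with a larger change in SW780, by 1.61. In 34 of the 35, these dim genes included, the SW780 change was the smaller in size. Named genes were picked by their A549 results, so this count cannot show which line responded more. Over all genes, limma called 1642 in A549 and 1663 in SW780. The groups of 2 arrays are too small for a search for outlying arrays.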

How the results depend on the processing

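Of 2732 checks of named genes under the alternatives 2538 stayed on the same side of the threshold in the same direction, 193 lost it and 1 reversed, CSNK1A1, whose change was -0.0655 with averaged probe sets. Of the 114 named genes 58 kept the call under each alternative. The A549 total of 1642 (749 higher, 893 lower) became 2616 (1260 and 1356) with A549 arrays only and 879 (318 and 561) without a trended prior; median scaling gave 1890 higher and 480 lower, and averaged probe sets 470 higher. With A549 arrays only 1874 genes were called against siEGFP and 2257 against siFFluc, and without the trend 613 and 799, with 236 between the controls. The 387 differences between lines became 77 against siEGFP alone, 214 without the filter, 1289 under median scaling, 154 with averaged probe sets, 84 without the trend and 238 with the replicate block. Above and below all 4 control arrays, median scaling gave 4307 and 1517 genes. Leaving out 1 array gave 524 to 2379 A549 calls (176 to 1150 higher, 348 to 1230 lower), 413 to 1733 against siEGFP, 547 to 2034 against siFFluc, 176 to 583 between controls, 41 to 951 between lines, 2760 to 3456 above and 3222 to 4191 below. A lone array in a group was taken to vary like the other groups. Replicate 1 deviations correlated at -0.03 to 0.02 between groups, so the numbers do not pair arrays; with the replicate block 1630 genes were called (768 higher, 862 lower). Precision is limited by 2 arrays a group and by dim probe sets.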
